A study of Ovis aries with 2 samples.

Results

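The cell division genes are 40 named genes, taken as a list, among the 26814 gene names counted in sheep blood cells. The rule names the genes and uses no measured value, but the list was chosen with earlier results of these data known. They comprise 14 genes of DNA replication and nucleotide supply, 19 of mitosis, the 5 condensin genes NCAPG2, NCAPG, NCAPH, SMC2 and SMC4, and 2 others, CENPP and STMN1. All 40 names were in the files, and 39 were counted at least once, since AURKB, a mitotic kinase gene, had 0 UMIs in both libraries.

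Peripheral blood mononuclear cells (PBMCs) of sheep were isolated on a density gradient, used fresh, and profiled by single-cell RNA sequencing in droplets, which counts unique molecular identifiers (UMIs) at the 3′ end of transcripts. Sheep behind the untreated library were given no treatment. Those behind the A.G.-ES library had A.G.-ES embedded at the left and right ST36 acupuncture points before they were bled. The series title describes A.G.-ES as a suture that releases astragaloside IV and glycyrrhizic acid, and the animals as weaned lambs. There was 1 library per group, and the labels do not give the breed, the age, the time between embedding and blood collection, or the number of animals behind a library.

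A dividing cell first copies its DNA, which needs the MCM helicase, the sliding clamp PCNA and a supply of deoxynucleotides, and then separates the copies, which needs cyclin-dependent kinases, condensin, kinesin motors and the spindle checkpoint. Transcripts of the replication genes peak around S phase, and those of the mitotic genes in G2 and M phase, so that cells at different stages carry different mixtures of them. Most circulating lymphocytes are at rest, and the dividing cells in blood include activated T cells and plasmablasts, the antibody-secreting cells that have just formed from B cells.

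After filtering, 7565 untreated cells with 50543124 UMIs and 8737 A.G.-ES cells with 39275689 UMIs remained, at a median of 5130 and 4100 UMIs per cell. Since each group is 1 library, differences between treatments have no replicates and were not tested. Every interval below is a 95% interval and covers counting error only, and PCR and sampling of animals are not in it. Intervals of CPM, ratios and balances treat UMIs as independent, so the spread between cells is not in them either. They are too narrow where a few cells hold most of the UMIs. The 85 genes placed on the Y chromosome by RefSeq gave 40426 untreated and 753 A.G.-ES UMIs, so animals and treatment cannot be told apart. The libraries shared 61 barcodes, of which 57 and 59 were kept. Of those, 2 untreated and 0 A.G.-ES cells had 20 or more UMIs of the 40 genes. Cells were assigned to the B lineage with at least 3 UMIs of MS4A1, CD79B and PAX5 together (3296 and 1518 cells) and to the T lineage with at least 1 UMI of CD3D and CD3E together (3778 and 6173 cells). A cell that met both rules, 278 and 249 of them, stayed in both. The summed level of 8 B-cell marker genes was 7103 CPM (counts per 1000000 UMIs) in untreated and 5193 CPM in A.G.-ES B-lineage cells. That of 7 T-cell markers was 1871 and 2293 CPM in T-lineage cells. T-lineage cells also carried B-cell markers, at 1362 CPM (untreated) and 481 CPM (A.G.-ES), and their part in the T-lineage values was not tested.

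In both lineages the A.G.-ES library had the lower level of the cell division genes. In B-lineage cells they summed to 1102 CPM (1090 to 1113) from 35385 untreated UMIs and to 519 CPM (504 to 533) from 4910 A.G.-ES UMIs, which was 2.12-fold lower (2.06 to 2.19). In T-lineage cells the sums were 1378 CPM (1361 to 1395) from 26591 UMIs and 755 CPM (745 to 766) from 20410 UMIs, 1.82-fold lower (1.79 to 1.86). The T-lineage log2 ratio of -0.87 was -0.39 with each cell thinned to 1500 UMIs and -0.40 as a mean over cells. Untreated cells that met neither rule had 1640 CPM and A.G.-ES cells 399 CPM, 4.11-fold lower (3.89 to 4.34). A class of monocytes, defined by at least 3 UMIs of CD14, CSF1R and VCAN together and neither lineage rule, had 126 CPM (103 to 153) and 116 CPM (99.1 to 135). The monocytes gave the level at which these genes were counted in cells that seldom divide, and there the 2 intervals overlapped.

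The share of cells with at least 5 UMIs of the 40 genes in the B lineage was 29.6% in the untreated library (28.0 to 31.2%) and 11.8% in the A.G.-ES library (10.2 to 13.5%). In T-lineage cells it was 17.5% (16.3 to 18.8%) and 13.7% (12.8 to 14.6%). Depth enters this share, since B-lineage cells had medians of 9017.5 (untreated) and 5712 UMIs (A.G.-ES), and T-lineage cells of 4184.5 and 4059. When each cell was thinned to 1500 UMIs and shallower cells were left out (46 and 15 B-lineage, 192 and 275 T-lineage), 140 of 3250 untreated B-lineage cells had 5 or more (4.31%, 3.64 to 5.06%). Only 5 of 1503 A.G.-ES B-lineage cells did (0.333%, 0.108 to 0.775%). The thinned shares of T-lineage cells were 3.68% (3.09 to 4.35%) and 1.32% (1.05 to 1.65%). Of the monocytes, 1.19% (2 of 168 cells, median 4192 UMIs) and 1.77% (4 of 226, median 6418 UMIs) reached 5 UMIs before thinning and 0 of 152 and 0 of 222 after it, which allows shares of up to 2.40% and 1.65%.

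**Figure D1:**
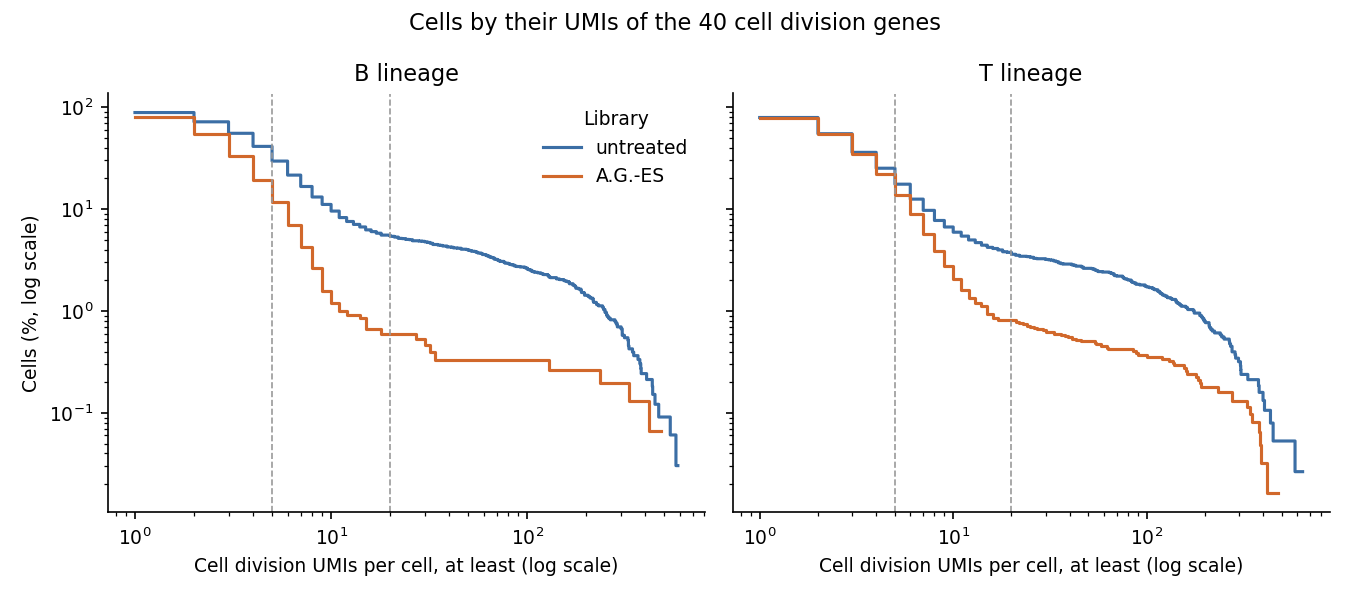
Share of B-lineage (left) and T-lineage cells (right) with at least the number of cell division UMIs on the x axis, both axes on a log scale, in the untreated (blue) and A.G.-ES library (orange), with dashed lines at 5 and 20 UMIs. At 20 UMIs the curves stand at 5.40% and 0.593% of B-lineage cells and at 3.60% and 0.810% of T-lineage cells.

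Both distributions had a long tail of cells with many such UMIs, up to 586 in an untreated B-lineage cell and 639 in an untreated T-lineage cell. A limit of 20 UMIs was added after the data were seen, because 5 UMIs were also reached by deep cells outside this tail and by some monocytes. At 20 or more UMIs there were 178 untreated B-lineage cells (5.40%, 4.65 to 6.23%) and 9 A.G.-ES B-lineage cells (0.593%, 0.271 to 1.12%). Among T-lineage cells there were 136 (3.60%, 3.03 to 4.24%) and 50 (0.810%, 0.602 to 1.07%). No monocyte reached 20 in either library, which allows up to 2.17% and 1.62% of them. Of the 9 A.G.-ES B-lineage cells, 6 also met the T rule, against 28 of the 178 untreated cells. Counting only cells that met the B rule alone, 150 of 3018 (4.97%, 4.22 to 5.81%) and 3 of 1269 (0.236%, 0.0488 to 0.689%) had 20 or more. Counting only cells with at least 3 CD3 UMIs that did not meet the B rule, the numbers were 94 of 3038 (3.09%, 2.51 to 3.77%) and 43 of 4824 (0.891%, 0.646 to 1.20%). Cells ranked as likely doublets had been taken out, and 44 of 523 in the untreated and 4 of 715 in the A.G.-ES library had 20 or more, so the removal took more of these cells from the untreated library.

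These few cells held most of the genes' UMIs in the untreated library. In B-lineage cells the 178 cells carried 70.7% of the UMIs of the 40 genes and 10.7% of all UMIs, and the 9 A.G.-ES cells carried 34.7% and 2.51%. In T-lineage cells the 136 cells carried 67.8% and the 50 cells 33.2%. In the A.G.-ES library 5 B-lineage cells alone held 32.3% of them, against 7.37% for the 5 highest untreated cells. The A.G.-ES B-lineage level rested on few cells: without the cells that met both rules, the log2 ratio of the summed level moved from -1.09 to -1.51.

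**Figure D2:**
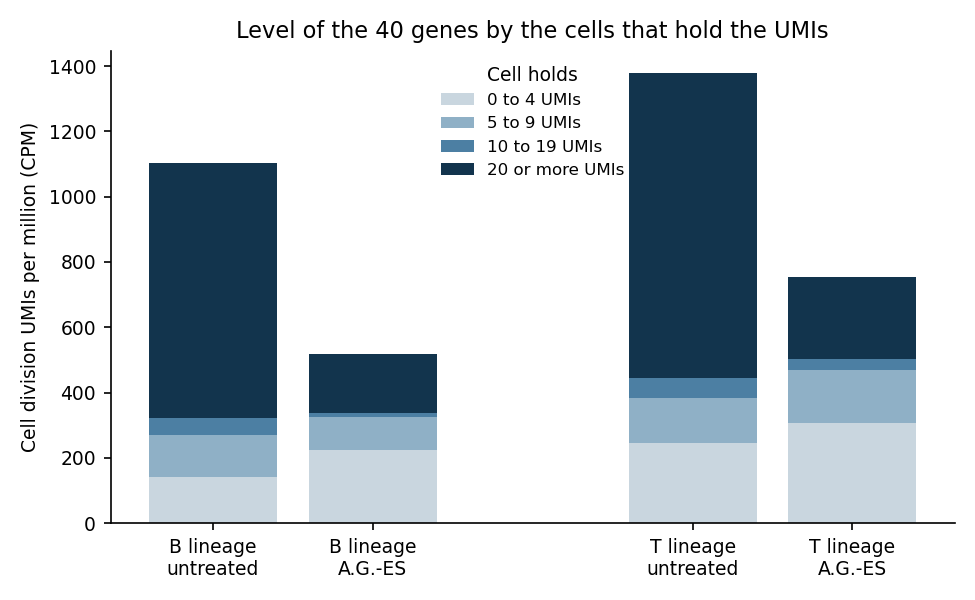
Level of the 40 genes in each lineage and library in CPM of all UMIs of that lineage, stacked by the number of cell division UMIs of the cells that hold them. The part held by cells of 20 or more UMIs is 779 and 180 CPM in the B lineage and 935 and 251 CPM in the T lineage, while the other parts differ less.

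Without the cells of 20 or more UMIs, the summed level was close in the 2 libraries, at a log2 ratio of -0.06 in B-lineage and 0.03 in T-lineage cells. Single members lay lower there, at a median log2 ratio of -0.32 in each lineage, beside -0.08 (B) and -0.09 (T) for all genes. The sum follows members with many UMIs, such as STMN1. In cells under 20 UMIs of the other members, STMN1 had 42.9 and 54.4 CPM in the B and 122 and 156 CPM in the T lineage. Without the cells of 5 or more, the summed level was 241 CPM (234 to 248) in untreated and 273 CPM (261 to 285) in A.G.-ES B-lineage cells, a log2 ratio of 0.18. T-lineage cells had 362 CPM (352 to 372) and 388 CPM (379 to 396), a log2 ratio of 0.10. A limit in UMIs takes more cells from the deeper library: the B-lineage cells under 5 UMIs had medians of 7944 and 5449 UMIs, and thinned to 1500 UMIs the B-lineage log2 ratio was -0.0040. The sign of this remainder in the B lineage thus turned with the limit and with thinning.

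Gene by gene, 35 of the 39 counted members were at least 1.5-fold lower in A.G.-ES B-lineage cells and 0 were at least 1.5-fold higher. Of the 12326 genes with at least 20 UMIs in that lineage, 17.7% were lower and 13.4% higher by that measure. The members' median log2 ratio was -1.44, and that of all genes -0.11. The 4 members between were MCM7, TPX2, SMC4 and TK1. In T-lineage cells 33 of 39 were lower and 0 higher, where 17.0% and 12.0% of 13021 genes were, with median log2 ratios of -1.41 for the members and -0.13 for all genes. The 6 between were RRM1, MCM6, TPX2, STMN1, SMC4 and NUSAP1. Over all kept cells, 31 were lower and 0 higher, beside 17.7% and 18.6% of all genes. Since the list was chosen with earlier results of these data known, these counts describe the list and do not test it.

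**Figure D3:**
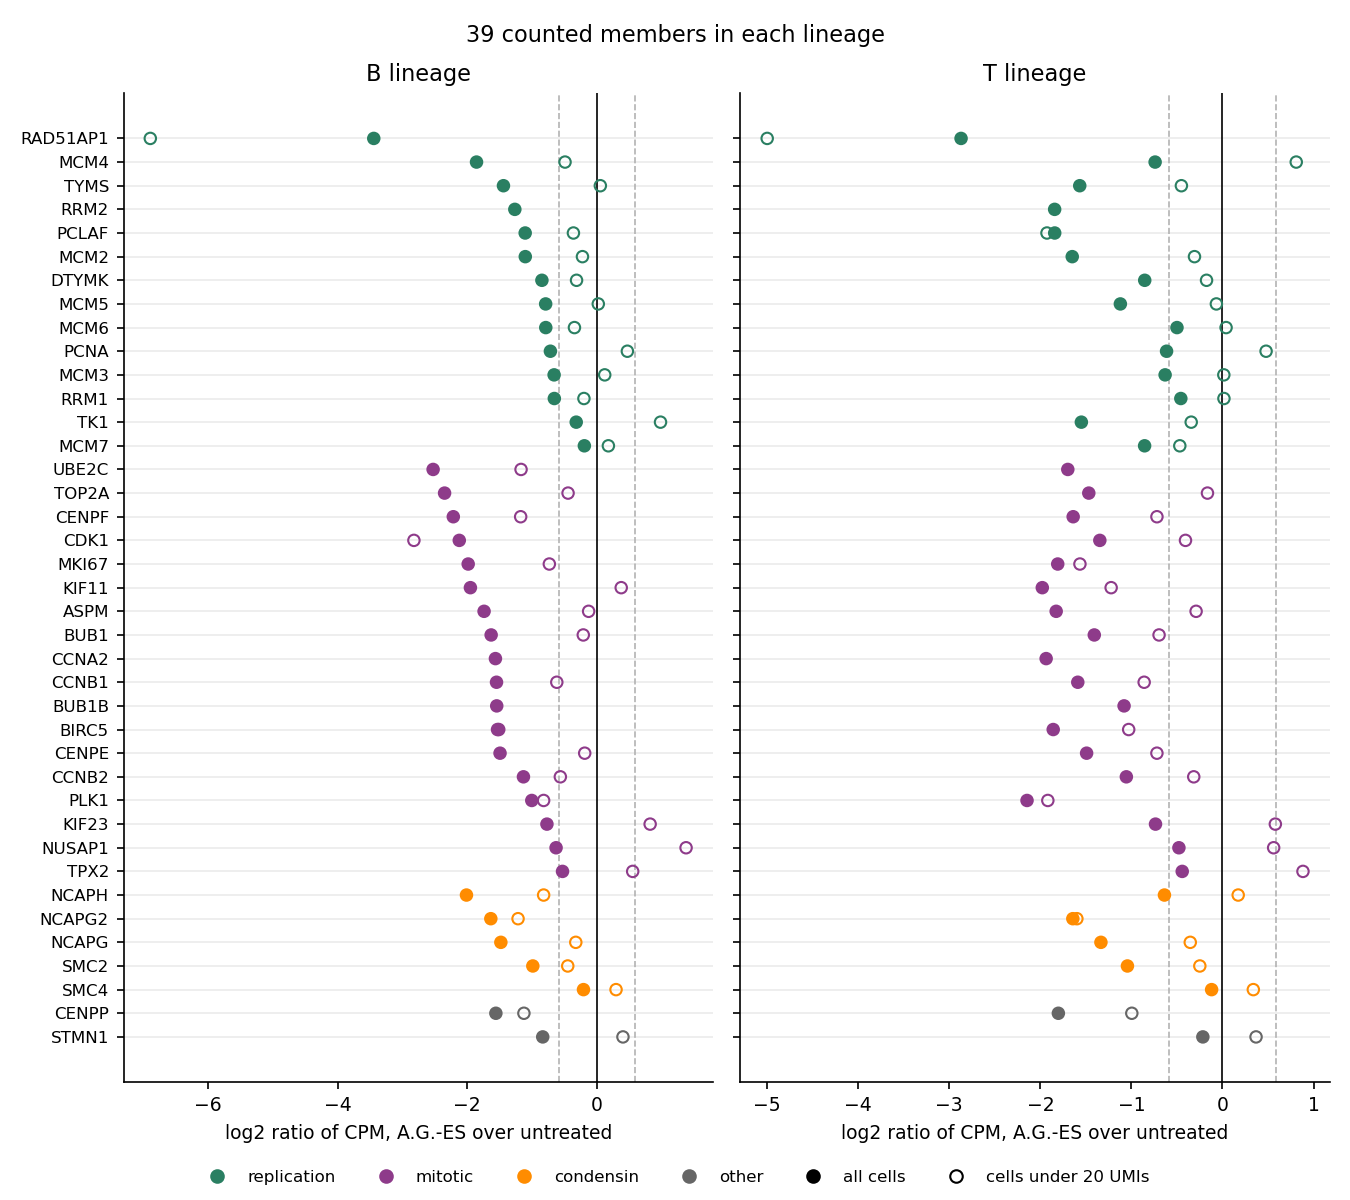
log2 ratio of CPM, A.G.-ES over untreated, for each of the 39 counted members by role, in all cells of the B (left) and T lineage (right, on its own x scale; filled) and in cells with fewer than 20 cell division UMIs (open, drawn where a gene had at least 20 UMIs there). Dashed lines mark 1.5-fold. Filled points lie left of 0, though with TMM scaling SMC4 in the T lineage would lie at 0.026, while open points spread to both sides, with RAD51AP1 farthest left.

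Among the replication genes, the sum of the 14 was 313 CPM in untreated and 179 CPM in A.G.-ES B-lineage cells, 1.75-fold lower, and 429 and 234 CPM in T-lineage cells, 1.83-fold lower. In each lineage 12 of the 14 were at least 1.5-fold lower, beside 17.7% of all genes in the B and 17.0% in the T lineage. The helicase subunit genes MCM2 to MCM7, whose products unwind the DNA at the fork as 1 ring, did not move by the same amount. MCM4 had 14.2 CPM in untreated and 3.91 CPM in A.G.-ES B-lineage cells, 3.63-fold lower (2.59 to 5.21). In T-lineage cells it had 21.9 and 13.1 CPM, 1.67-fold lower (1.45 to 1.93). MCM2 had 9.78 and 4.54 CPM in the B and 14.5 and 4.62 CPM in the T lineage, 2.15-fold (1.56 to 3.03) and 3.14-fold lower (2.53 to 3.91). MCM7 was the nearest to equal of the 6 in B-lineage cells, at 36.6 and 32.0 CPM, and MCM6 in T-lineage cells, at 50.2 and 35.5 CPM. MCM3 and MCM5 lay between, at 1.58- and 1.73-fold lower in the B and 1.55- and 2.18-fold lower in the T lineage.

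PCNA, which encodes the sliding clamp that holds DNA polymerase on its template, had 41.4 CPM (39.2 to 43.7) and 25.1 CPM (22.0 to 28.5) in B-lineage cells. T-lineage cells had 63.5 CPM (60.0 to 67.2) and 41.5 CPM (39.1 to 44.0), so it was 1.65- and 1.53-fold lower. PCLAF, which encodes a protein bound to that clamp, was lower by more, at 20.5 and 9.51 CPM in the B and 31.0 and 8.66 CPM in the T lineage, 2.15-fold (1.73 to 2.72) and 3.59-fold lower (3.08 to 4.19). The 2 subunits of ribonucleotide reductase, which makes deoxynucleotides, went apart. RRM2, its small subunit, had 6.10 and 2.54 CPM in the B and 10.9 and 3.03 CPM in the T lineage, 2.41-fold (1.57 to 3.85) and 3.59-fold lower (2.77 to 4.69). RRM1, the large subunit, had 39.5 and 25.0 CPM and 56.6 and 41.2 CPM, 1.58-fold (1.37 to 1.82) and 1.37-fold lower (1.26 to 1.49). TYMS, which makes thymidylate, was 2.72-fold lower in B-lineage (10.3 and 3.80 CPM) and 2.96-fold lower in T-lineage cells (13.3 and 4.48 CPM). TK1, the thymidine kinase of dividing cells, had 12.8 CPM (11.6 to 14.1) and 10.2 CPM (8.31 to 12.5) in B-lineage cells, with overlapping intervals, but 18.1 CPM (16.2 to 20.1) and 6.18 CPM (5.28 to 7.19) in T-lineage cells. DTYMK, the next kinase on that path, was 1.80- and 1.81-fold lower.

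The mitotic genes were lower by more than the replication genes in both lineages. Their sum was 420 CPM in untreated and 134 CPM in A.G.-ES B-lineage cells, 3.14-fold lower, and 454 and 174 CPM in T-lineage cells, 2.61-fold lower. Of the 18 counted, 17 were at least 1.5-fold lower in the B and 16 in the T lineage, beside 17.7% and 17.0% of all genes. MKI67, the gene of the Ki-67 antigen used to stain dividing cells, had 66.1 CPM (63.3 to 69.0) and 16.7 CPM (14.2 to 19.5) in B-lineage cells, 3.96-fold lower (3.37 to 4.69). Its UMIs were in 213 of 3296 and 23 of 1518 of those cells. In T-lineage cells it had 85.0 CPM (81.0 to 89.3) and 24.3 CPM (22.4 to 26.2), 3.50-fold lower (3.20 to 3.84), and monocytes had 2 and 0 UMIs of it. TOP2A, the topoisomerase that untangles sister chromatids, had 80.3 and 15.7 CPM in the B and 65.3 and 23.6 CPM in the T lineage, 5.10-fold (4.32 to 6.06) and 2.77-fold lower (2.51 to 3.05).

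CDK1, the kinase that drives entry into mitosis, had 6.44 CPM (5.60 to 7.38) and 1.48 CPM (0.808 to 2.48) in B-lineage cells, 4.36-fold lower (2.54 to 8.11). In T-lineage cells it had 7.15 and 2.81 CPM, 2.54-fold lower (1.91 to 3.41). Its cyclin partners CCNB1, CCNB2 and CCNA2 were 2.93-, 2.20- and 2.96-fold lower in the B and 3.01-, 2.08- and 3.83-fold lower in the T lineage. UBE2C, the ubiquitin-conjugating enzyme with which the anaphase-promoting complex destroys cyclin B, had 26.2 CPM (24.4 to 28.0) and 4.54 CPM (3.29 to 6.12) in B-lineage cells. That 5.77-fold lower value (4.24 to 8.03) lay above the 3.25-fold (2.66 to 3.98) of T-lineage cells, with 17.0 and 5.25 CPM. The A.G.-ES B-lineage value of UBE2C came from 43 UMIs in 7 cells, a spread that its interval does not cover. PLK1, a mitotic kinase, had 3.39 and 1.69 CPM in the B lineage, from 109 and 16 UMIs, and 4.09 and 0.925 CPM in the T lineage, from 79 and 25 UMIs. It was 2.01-fold (1.18 to 3.64) and 4.43-fold lower (2.79 to 7.25), with overlapping intervals.

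The genes of the kinetochore, where spindle fibres attach, and of the spindle checkpoint were lower too. CENPF had 63.8 and 13.7 CPM in B-lineage and 78.1 and 25.1 CPM in T-lineage cells, 4.65-fold (3.89 to 5.59) and 3.12-fold lower (2.84 to 3.42). The kinetochore motor gene CENPE and the checkpoint kinase gene BUB1 were 2.82- and 3.10-fold lower in the B and 2.81- and 2.65-fold lower in the T lineage. BUB1B, another checkpoint gene, had only 109 and 11 UMIs in the B lineage, which leaves its 2.92-fold with an interval of 1.57 to 6.02. BIRC5, the survivin subunit of the chromosomal passenger complex, had 16.0 and 5.60 CPM and 19.6 and 5.40 CPM, 2.86- and 3.63-fold lower. Of the spindle genes, KIF11, the kinesin that pushes the spindle poles apart, was 3.87- and 3.94-fold lower and ASPM, a spindle pole protein gene, 3.34- and 3.55-fold lower in the B and T lineage. TPX2, NUSAP1 and KIF23 were the mitotic genes nearest to equal. TPX2, a spindle assembly factor gene, had 35.6 and 24.6 CPM in B-lineage and 35.1 and 25.8 CPM in T-lineage cells. NUSAP1, which encodes a protein that bundles spindle fibres, was 1.55-fold lower (1.30 to 1.86) and 1.39-fold lower (1.24 to 1.57). KIF23, a kinesin gene of the last step that parts the daughter cells, had 7.04 and 4.12 CPM in the B and 10.8 and 6.47 CPM in the T lineage, 1.71-fold (1.21 to 2.46) and 1.67-fold lower (1.36 to 2.05).

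The condensin genes, whose products fold chromosomes for mitosis, summed to 218 and 128 CPM in B-lineage cells and to 254 and 160 CPM in T-lineage cells, 1.70- and 1.59-fold lower. SMC2 and SMC4 encode the ring subunits that every condensin holds, and they differed. SMC2 had 51.2 and 25.8 CPM in the B and 64.7 and 31.4 CPM in the T lineage, 1.99-fold (1.73 to 2.28) and 2.06-fold lower (1.89 to 2.25). SMC4 had 88.5 CPM (85.3 to 91.8) and 76.6 CPM (71.1 to 82.4) in the B and 104 CPM (99.5 to 109) and 95.7 CPM (92.1 to 99.5) in the T lineage, where its log2 ratio was -0.12 and, with TMM scaling, which centres the ratios of most genes on equality, 0.026. NCAPG2, a gene of condensin II, was 3.11-fold (2.62 to 3.71) and 3.12-fold lower (2.77 to 3.52). NCAPG, of condensin I, was 2.79- and 2.52-fold lower. NCAPH, also of condensin I, was 4.04-fold lower (2.30 to 7.73) in the B lineage, where the A.G.-ES library had 13 UMIs of it, and 1.56-fold lower (1.27 to 1.90) in the T lineage. STMN1, which encodes a protein that takes microtubules apart, had 121 and 67.6 CPM in B-lineage and 204 and 176 CPM in T-lineage cells. CENPP, a kinetochore gene, had 30.8 and 10.5 CPM and 36.9 and 10.6 CPM, 2.95- and 3.49-fold lower.

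Members differed in the share of their UMIs that lay in the cells of 20 or more UMIs. To keep a gene from choosing its own cells, cells were split here by their UMIs of the other 39 members. In the untreated B lineage over 90% of the UMIs of 10 members were in cells of 20 or more, led by CCNA2 (98.1%), UBE2C (97.5%), PCLAF (97.0%) and RRM2 (96.9%). Under 50% were there for 7 members, MCM7 (35.3%), RAD51AP1 (37.5%), SMC4 (43.3%), MCM6 (44.2%), RRM1 (45.2%), DTYMK (49.4%) and NCAPG2 (49.9%). In the untreated T lineage the counts were 9 and 6, with RRM2 at 97.6% and MCM7 at 43.2%. Of the 4 members between the limits in the B lineage, MCM7 and SMC4 had most of their untreated UMIs outside these cells, while TPX2 (65.3%) and TK1 (68.9%) had most inside. In cells under 20 UMIs, SMC4 had 56.0 and 68.3 CPM in the B and 67.2 and 84.8 CPM in the T lineage, and RRM1 24.2 and 20.9 CPM and 34.3 and 34.6 CPM.

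Within the cells of 20 or more UMIs of the other members, few members passed 1.5-fold. Of 39 members, 0 were at least 1.5-fold lower in A.G.-ES B-lineage cells and 3 were higher (RRM2, PCLAF and PLK1), with a median log2 ratio of 0.03. Of the 8712 genes with enough counts in B-lineage cells of 20 or more UMIs of the 40 genes, 28.9% were lower and 16.6% higher. In the T lineage 0 were lower and 2 higher (BUB1B and NUSAP1), with a median of 0.24, where 15.7% and 12.0% of 8696 genes were. In such B-lineage cells MKI67 had 581 CPM in the untreated and 531 CPM in the A.G.-ES library, and in T-lineage cells 613 and 760 CPM. PCNA had 276 and 286 CPM in the B and 343 and 337 CPM in the T lineage. The summed level of all 40 genes in cells of 20 or more UMIs was 7289 and 7184 CPM in the B and 7484 and 8932 CPM in the T lineage. The A.G.-ES values of the B lineage come from 9 cells. Of their 1706 UMIs of the 40 genes, 1514 were in the 6 cells that also met the T rule. In the untreated library it was 3489 of 25010. High cells that met both rules had medians of 22120.5 (untreated) and 30652.5 UMIs (A.G.-ES). The choice of cells by members' UMIs bounds the summed levels from below in both libraries.

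**Figure D4:**
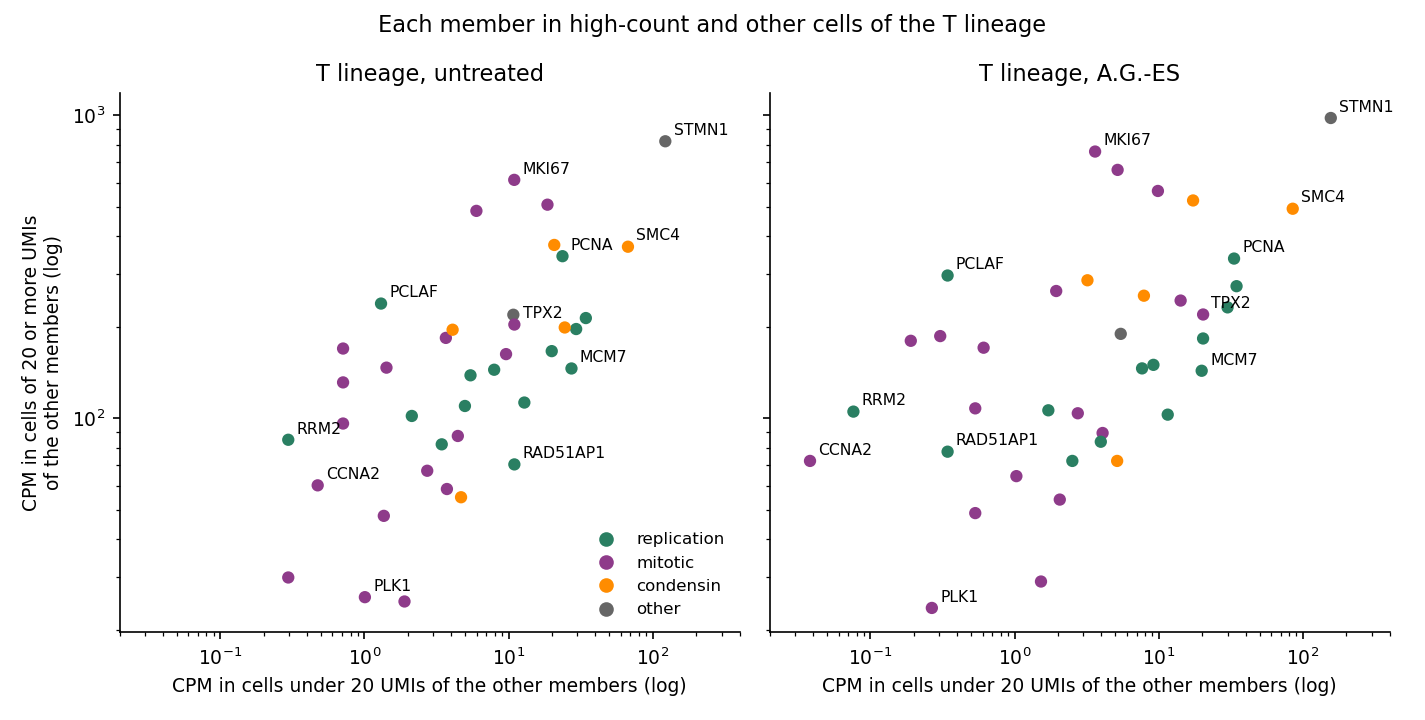
Each counted member in T-lineage cells by its CPM in cells with fewer than 20 UMIs of the other members (x) and with 20 or more (y), on log axes, in the untreated (left) and A.G.-ES library (right), coloured by role. RAD51AP1 moves from 11.0 to 0.343 CPM on the x axis while it stays at 70.5 and 77.7 CPM on the y axis.

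In the cells under 20 UMIs of the 40 genes, members went both ways, and more were lower than higher. Their median log2 ratio was -0.32 in each lineage, where that of all genes was -0.08 (B) and -0.09 (T). For the mitotic members it was -0.51 in the B and -0.70 in the T lineage. In the B lineage 11 of the 36 with enough counts were at least 1.5-fold lower and 3 higher, where 16.1% and 14.5% of all genes were, and in the T lineage 12 and 2 of 35, where 14.6% and 12.5% were. Under the limit of 5 UMIs, it was 7 lower and 5 higher of 28 in the B lineage (15.4% and 13.8% of all genes). In the T lineage it was 7 and 3 of 30 (14.4% and 13.5%). Under the limit of 20, NUSAP1 was higher in A.G.-ES B-lineage cells, at 3.77 CPM in the untreated and 9.75 CPM in the A.G.-ES library, and TK1 at 4.29 and 8.45 CPM. TPX2 (11.0 and 20.2 CPM) and MCM4 (5.21 and 9.14 CPM) were the 2 higher in T-lineage cells. MKI67 was lower in both lineages, at 4.15 and 2.49 CPM in the B and 10.4 and 3.50 CPM in the T lineage. NCAPG2 was lower in both lineages, at 26.5 and 11.4 CPM in the B and 23.9 and 7.88 CPM in the T lineage, and so was CENPP, at 14.7 and 6.72 CPM and 10.8 and 5.41 CPM.

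RAD51AP1, which encodes a DNA repair protein, was the counted member with the largest fold between libraries in both lineages. It had 18.4 CPM (16.9 to 19.9) in untreated and 1.69 CPM (0.966 to 2.74) in A.G.-ES B-lineage cells, 10.9-fold lower (6.64 to 19.1). In T-lineage cells it had 18.4 CPM (16.5 to 20.4) and 2.52 CPM (1.95 to 3.19), 7.31-fold lower (5.63 to 9.63). In cells with 20 or more UMIs of the other members it was level, at 64.8 and 63.2 CPM in the B and 70.5 and 77.7 CPM in the T lineage. The A.G.-ES B-lineage value there came from 15 UMIs over 9 cells. Of the 16 RAD51AP1 UMIs in the whole A.G.-ES B lineage, 14 were in 4 cells that also met the T rule. In B-lineage cells under 20 UMIs, 368 UMIs in the untreated and 1 UMI in the A.G.-ES library gave 12.8 CPM (11.6 to 14.2) and 0.108 CPM (0.00274 to 0.604), a 118-fold ratio with a counting interval of 21.1 to 4689. In T-lineage cells under 20 UMIs, 185 and 9 UMIs gave 11.0 and 0.343 CPM. At least 1 UMI was found in 433 untreated and 6 A.G.-ES B-lineage cells. Of its neighbour genes in RefSeq, in the order of the assembly ARS-UI_Ramb_v3.0, C3H12orf4 and NDUFA9 did not show this. C3H12orf4 had 9.06 and 8.45 CPM and NDUFA9 39.6 and 35.9 CPM in B-lineage cells under 20 UMIs. The neighbours AKAP3, DYRK4 and FGF6 had at most 1 UMI per library there, too few to compare. FGF23, from 14 and 15 UMIs, was higher in A.G.-ES, at 0.488 and 1.63 CPM. What sets the difference in these cells was not tested.

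The balance of mitotic to replication UMIs differed between the libraries. It was 1.34 (1.31 to 1.38) in untreated and 0.746 (0.693 to 0.803) in A.G.-ES B-lineage cells, and 1.06 (1.03 to 1.09) and 0.743 (0.715 to 0.771) in T-lineage cells. Without the cells that met both rules, the B-lineage balance was 1.40 (1.36 to 1.44) and 0.410 (0.367 to 0.458), so that its log2 change moved from -0.85 to -1.77. In the A.G.-ES library those 249 cells held 806 of the 1265 mitotic and 576 of the 1695 replication UMIs of the B lineage. Within bands of cell division UMIs, and with cells that met both rules kept, the balance differed less. In cells of 0 to 4 UMIs it was 0.293 and 0.355 in the B and 0.304 and 0.326 in the T lineage. In cells of 5 to 19 UMIs it was 0.424 and 0.508, and 0.578 and 0.528. In cells of 20 or more UMIs it was 2.03 (1.97 to 2.10) and 1.68 (1.496 to 1.89) in the B and 1.45 (1.39 to 1.498) and 1.66 (1.56 to 1.76) in the T lineage. The B-lineage value of 1.68 comes from 9 A.G.-ES cells, 6 of which also met the T rule. The 3 that met the B rule alone had 22, 3 and 23 mitotic and, in that order, 5, 22 and 61 replication UMIs. High cells carried relatively more mitotic UMIs than the rest in each library and lineage. The lower balance of the A.G.-ES library over whole lineages ran alongside its smaller share of such cells, and the part of that share in the balance was not tested. Cells with more mitotic than replication UMIs were 100 of the 178 untreated and 6 of the 9 A.G.-ES high B-lineage cells (56.2%, 48.6 to 63.6%, and 66.7%, 29.9 to 92.5%). In the T lineage they were 66 of 136 and 23 of 50 (48.5% and 46.0%).

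**Figure D5:**
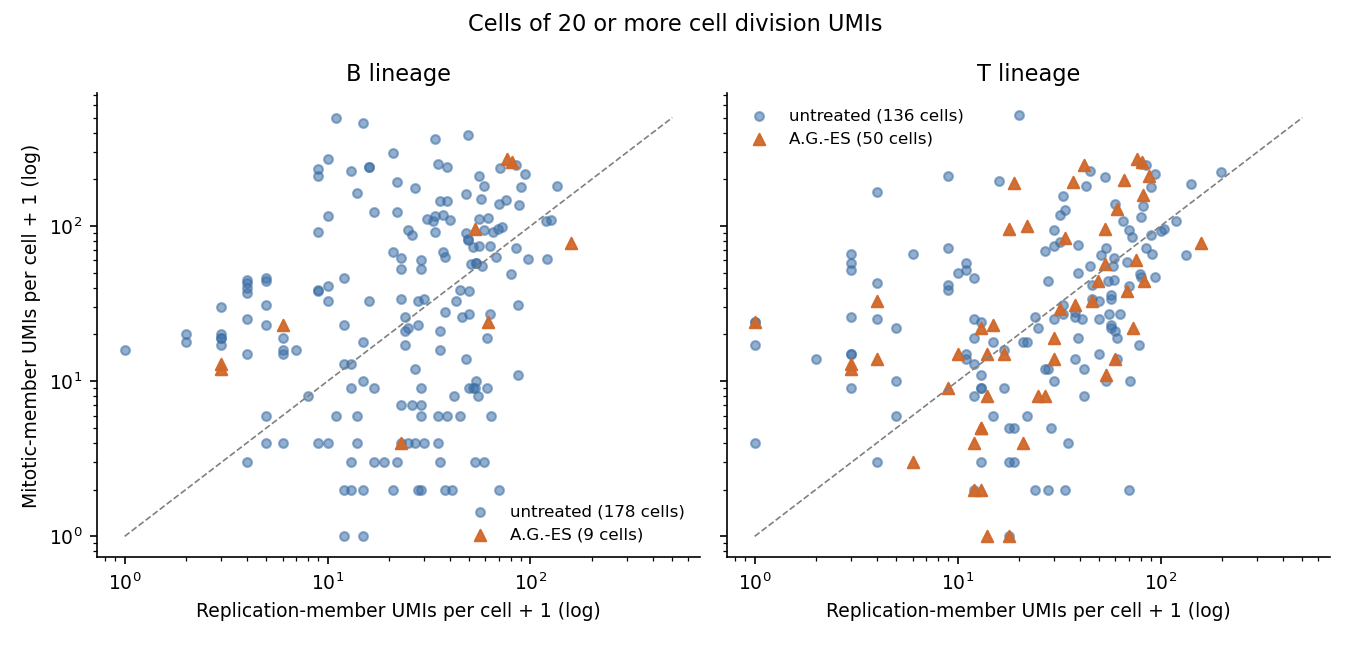
Mitotic against replication UMIs, each plus 1 and on a log axis, for every cell of 20 or more cell division UMIs in the B (left) and T lineage (right), untreated as blue circles and A.G.-ES as orange triangles, with equality as a dashed line. Both libraries have cells on each side of the line, and 6 of the 9 A.G.-ES cells in the B panel are also in the T panel.

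The high B-lineage cells carried genes of antibody-secreting cells. Of the 178 untreated cells 165, and of the 9 A.G.-ES cells 9, had at least 3 UMIs of JCHAIN, MZB1 and DERL3 together, genes of antibody assembly and secretion. B-lineage cells that met this rule were 50.6% of the untreated and 23.7% of the A.G.-ES B lineage, at median depths of 11124.5 and 6943.5 UMIs. Among them 9.89% (8.50 to 11.4%) and 2.50% (1.15 to 4.69%) had 20 or more cell division UMIs. Among the other B-lineage cells it was 13 of 1628 (0.799%, 0.426 to 1.36%) and 0 of 1158, which allows up to 0.318%. Cells of neither lineage that met the secreting rule showed it too, with 26 of 65 (40.0%, 28.0 to 52.9%) in the untreated and 1 of 85 (1.18%, 0.0298 to 6.38%) in the A.G.-ES library. The 6 antibody-secreting markers summed to 725 and 472 CPM in B-lineage and 496 and 228 CPM in T-lineage cells, and their part in the lower division genes was not tested.

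Of 3 T-lineage subsets by marker genes, high cells were most frequent among cells with a CD8A or CD8B UMI, genes of cytotoxic T cells. Of these, 68 of 431 in the untreated (15.8%, 12.5 to 19.6%) and 30 of 1220 in the A.G.-ES library (2.46%, 1.67 to 3.49%) had 20 or more cell division UMIs, and the summed level was 3645 and 1134 CPM. Among T-lineage cells with a CD4 UMI, 26 of 454 (5.73%, 3.77 to 8.28%) and 14 of 1662 (0.842%, 0.461 to 1.41%) did, with 1937 and 886 CPM. T-lineage cells with at least 2 UMIs of SOX13 and RHEX together were 54.1% of the untreated and 15.2% of the A.G.-ES T lineage. They held few high cells in either library, 8 of 2043 (0.392%) and 1 of 938 (0.107%), and their summed levels were 513 and 419 CPM. The T-lineage mixture thus differed between libraries. Summed levels were lower in A.G.-ES for all 3 subsets, by 3.21-fold (CD8), 2.19-fold (CD4) and 1.23-fold (SOX13 and RHEX). Untreated and A.G.-ES shares with 5 or more UMIs were 40.1% and 15.2% (CD8) and 40.5% and 22.4% (CD4). For SOX13 and RHEX they were 5.82% and 6.18%. The part of the mixture in the lower T-lineage level was not tested. Median depths were 5095 and 4105 UMIs in the CD8 subset and 5158.5 and 4575 in the CD4 subset. Of all high T-lineage cells, 38 of 136 untreated and 6 of 50 A.G.-ES cells met the antibody-secreting rule, and 28 and 6 met the B rule. The T rule needs only 1 CD3 UMI, and which of these cells are T cells was not tested.

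Other genes of the pathway, from lists by textbook role, moved with the members. These lists too were chosen with earlier results of these data known. Of 31 other replication genes, 21 passed 1.5-fold lower and 0 passed it higher in B-lineage and 24 and 0 in T-lineage cells. Of all genes, 17.7% were lower and 13.4% higher in the B and 17.0% and 12.0% in the T lineage. UHRF1, which carries DNA methylation to new strands, had 19.8 and 4.22 CPM in the B and 27.0 and 8.29 CPM in the T lineage. DUT, which keeps uracil out of DNA, had 141 and 66.5 CPM and 150 and 62.9 CPM. BRCA1, of recombination repair, had 10.5 and 2.01 CPM and 14.3 and 3.55 CPM. Of 31 other mitotic genes, 23 were lower and 1 higher in the B and 24 and 0 in the T lineage. NUF2, a kinetochore gene, had 13.4 and 3.70 CPM and 17.1 and 4.96 CPM. The gene higher in A.G.-ES B-lineage cells was CKAP2, which encodes a spindle protein, at 9.84 and 15.2 CPM.

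The G1 cyclins and their kinases, which act before S phase, moved less. Of 5, 0 were lower and 0 higher in the B lineage, and 1 was lower in the T lineage, CDK4, at 22.8 and 13.5 CPM. Of 7 chromatin and tubulin genes, 2 were lower in the B lineage (HMGN2 and LMNB1) and 4 in the T lineage (HMGN2, LMNB1, H2AZ1 and TUBB). Of 9 inhibitors of the cycle, 0 were lower in either lineage, and 2 were higher in the B and 3 in the T lineage. The shares of all genes were 17.7% lower and 13.4% higher in the B and 17.0% and 12.0% in the T lineage. These lists are short, so single genes move their shares by much. CDKN1A, which encodes the kinase inhibitor p21, had 12.6 and 48.2 CPM in B-lineage cells, 3.83-fold higher, and 24.9 and 37.9 CPM in T-lineage cells, 1.52-fold higher. TOB1, an antiproliferative gene, had 13.2 and 24.4 CPM and 21.4 and 34.8 CPM, and BTG2, of the same family, was higher in the T lineage, at 14.7 and 24.2 CPM.

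In the cells of 20 or more division UMIs, genes outside the 40 that led over the other cells in both libraries were again of the cell cycle, so the label of the 40 genes held in these cells. In the B lineage they included the histone H1 genes H1-5 (272 CPM in high and 1.99 CPM in other untreated cells, 379 and 1.95 CPM in A.G.-ES) and H1-2, and UHRF1, CLSPN, LMNB1, GMNN and NUF2. In the T lineage H1-5 had 295 and 2.78 CPM in the untreated and 298 and 2.06 CPM in the A.G.-ES library, and UHRF1 204 and 1.78 CPM and 253 and 1.22 CPM. With 10 CPM added to each level, at least 2-fold above the other cells in both libraries were 25 of the 31 other replication and 29 of the 31 other mitotic genes in the B and 30 and 28 in the T lineage. Of the cycle inhibitors it was 1 of 9 in each lineage.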

How the data were processed

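Counts of UMIs were deposited by the authors as 1 matrix per library, per the file contents as raw counts per gene name and barcode. Libraries were made with the SeekOne DD 3′ kit and sequenced on a GeneMind SURFSeq instrument, per the labels' protocols. For the aligner, counter, cell caller and genome build, the sources used here give no name, and no sequence or coordinate is printed for that reason. The members and lists were chosen with earlier results of these data known.

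Cells needed at least 500 UMIs, 200 genes and at most 15% mitochondrially encoded UMIs, and 158 of 8246 untreated and 186 of 9638 A.G.-ES barcodes failed this. Doublets were ranked with Scrublet in scanpy 1.11.5 and the top 0.8% per 1000 cells removed, 523 and 715 cells. Scrublet's own threshold marked 217 and 216 (2.68% and 2.29%). CD3G is not among the gene names used here, so the T rule rests on CD3D and CD3E. A gene list of RefSeq (ARS-UI_Ramb_v3.0) matched all 26814 names and served for the Y chromosome and the order of neighbour genes.

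UMIs were summed over the cells of a lineage and library and expressed as CPM, UMIs per 1000000 of that sum. Ratios are A.G.-ES over untreated. CPM carry exact Poisson intervals, shares Clopper-Pearson intervals and ratios exact conditional binomial intervals, tested on simulated data. A gene counted as lower or higher at 1.5-fold with at least 20 UMIs over both libraries. Named were members by that minimum, members of the lists, and of the other genes those among the 10 with the highest smaller-of-both-libraries ratio of high over other cells, with at least 30 UMIs there and 10 CPM added. Subset rules on CD4, CD8, SOX13, RHEX and antibody-secreting genes use markers from the list of cell type markers. Alternatives covered depth, doublets, lineage rules, scaling (TMM in edgeR 4.0.16), the limit in UMIs and the count minimum.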

Additional observations from a re-analysis of the deposited data

Results flagged for a closer look

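Results that went opposite ways in the B and T lineage are given here, and with 1 library per group the difference was not tested. In cells under 5 division UMIs, MCM4 had a log2 ratio of -0.80 in the B and 1.02 in the T lineage. The B-lineage value came from 34 untreated and 8 A.G.-ES UMIs, at 1.79 CPM (1.24 to 2.50) and 1.03 CPM (0.444 to 2.02). Its fold lower, 1.74, had an interval of 0.792 to 4.36, which includes no change. The T-lineage value came from 52 and 174 UMIs, at 3.98 CPM (2.97 to 5.22) and 8.10 CPM (6.94 to 9.40). In cells of 20 or more, the log2 change of mitotic per replication UMIs was -0.27 (-0.38 to -0.17) in the B and 0.20 (0.13 to 0.26) in the T lineage. The first of these intervals rests on 9 A.G.-ES cells, 6 of which are in both lineages.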

How the results depend on the processing

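In each lineage 5 summary results were recomputed: the summed level, the share of high cells, the level without them, the mitotic to replication balance (under fewer settings) and the count of lower members. Sums by role, single-gene folds, subsets of cells, values within the high cells and the other gene lists were not recomputed under all of these. No count of lower members moved by over 1.5 times. Thinned to 1500 UMIs, it fell from 35 to 26 in the B and from 33 to 22 in the T lineage. Values are log2 ratios of A.G.-ES over untreated, or differences in share in percentage points. The B-lineage level (-1.09) was -0.93 thinned to 1500 UMIs, -1.51 without cells meeting both rules, -1.03 under stricter lineage thresholds, -1.03 with TMM and -0.95 as a mean of cells. The T-lineage level (-0.87) was -0.39, -0.92, -0.78, -0.72 and -0.40 under the same settings, and -1.02 without STMN1, the member with the most UMIs. TMM moved the scale by 0.05 in the B and 0.15 in the T lineage.

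The B-lineage difference in share (-17.8) was -3.98 thinned to 1500 and -4.90 thinned to 3000 UMIs, and -22.4, -8.37 and -4.81 at limits of 3, 10 and 20. The T-lineage difference (-3.86) was -2.36 thinned to 1500, -2.27 without cells meeting both rules, -1.54 under stricter thresholds, -5.57 without STMN1 and -1.34 at a limit of 3. Without the high cells the B-lineage level (0.18) reversed to -0.0040 when thinned and to -0.059 at a limit of 20. It was 0.10 under stricter thresholds, 0.10 without the top member, 0.30 at a limit of 3 and 0.066 at 10. The T-lineage level (0.10) was 0.18 with TMM, 0.042 without the top member, 0.039 at a limit of 3 and 0.034 at 20.

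The log2 change of the mitotic to replication balance in the B lineage (-0.85) was -1.28 thinned, -1.77 without cells meeting both rules and -0.64 under stricter thresholds. In the T lineage (-0.51) it was -0.69, -0.66 and -0.45 there, and -0.57 with doublets kept. The other 52 settings moved a result by less than its counting interval, or a count by at most 1.5 times. The cause was not tested for any of these. The A.G.-ES B-lineage values of cells of 20 or more UMIs rest on 9 cells. No paired analysis was possible because each group has 1 library.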
